A study of Mus musculus with 8 samples.

Results

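The regions described here carried H3K27ac peaks in every library of fed and fasted mouse intestinal crypts and stood higher among such regions in both fed libraries than in both fasted ones. Peaks of the 4 libraries were merged wherever they shared 1 bp or more, and autosomal regions with a peak in all 4 were kept, which left 6929 of 43091 regions. In each library the highest peak score in a region was turned into a percentile rank among the 6929, with tied scores averaged. A region was taken as fed-ranked where the lower of its fed ranks exceeded the higher of its fasted ranks by 10 points or more. There were 809 fed-ranked regions, 11.7% of those kept, and the same rule turned round gave 796 fasted-ranked regions, 11.5%. Both sets were chosen by the scores of these 4 libraries, so their ranks are given as a description, without a test, and nothing is read from these shares. When each region was ranked among all peaks of its library instead, 107 regions were fed-ranked and 1631 fasted-ranked, and 405 of the 809 kept a gap above 0.

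H3K27ac is histone H3 acetylated at lysine 27, which acetyltransferases place and histone deacetylases remove. It marks the nucleosomes beside active promoters and enhancers, and long stretches of it are known from genes that set the identity of a cell type. Crypts are the pits between the villi of the small intestine, where stem cells, Paneth cells and dividing progenitors sit. The intestinal lining renews itself from these cells.

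Mice of the strains C57BL/6J and Lgr5EGFP-IRES-CreERT2/+, males and females aged 6 to 12 weeks, either had free access to food or had water but no food for 24 h. The second strain carries an EGFP and CreERT2 cassette at Lgr5, a stem cell gene, and the labels do not say which strain gave which library. Whole crypt isolates of 4 animals were pooled for each library, so the signal is that of all crypt cells together, and more cells of a type cannot be told apart from more acetylation per cell. Both groups were handled in solutions with 100 nM trichostatin A, a deacetylase inhibitor. The 2 fed libraries are called fed 1 and fed 4 and the 2 fasted libraries fasted 2 and fasted 5, after their labels; the 4 inputs were not analysed here. The lists held 15504 to 37974 peaks and covered 21.9 to 48.8 Mb in the fed and 99.2 to 109.1 Mb in the fasted libraries. Sequencing depth is unknown, so no counting interval is given. A rank compares a region with the other kept regions of the same library and is not an amount of acetylation. Positions are mm9 and count from 1. No gene was assigned to any region and the crypt markers could not be checked, because the gene table at hand is of build GRCm38, and no sequence is shown for the same reason.

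Among the 6929 shared regions, the fed-ranked ones lay mostly above the middle in the fed libraries and below it in the fasted ones. In fed 1 their ranks ran from 12.5 to a median of 61.8 and up to 100, and in fed 4 they ran from 14.3 over a median of 70.2. The medians were 21.5 in fasted 2 and 20.6 in fasted 5. The gap between the lower fed and the higher fasted rank had a median of 20.4 points and reached 76.2. It was 30 points or more at 191 regions and 50 or more at 30. Ranks of 90 or more in both fed libraries were found at 60 fed-ranked regions (7.42%), beside 254 of all kept regions (3.67%). Ranks under 10 in both fasted libraries were found at 152 (18.8%), beside 346 of all kept regions (4.99%). Because the rule picks high fed and low fasted ranks, these differences from all kept regions, and those of the scores below, follow from it. The scores behind these ranks are the authors' own, on a scale that the sources used here do not state. Their medians at fed-ranked regions were 191.57 in fed 1 and 118.55 in fed 4, against 152.73 and 89.53 over all kept regions. In fasted 2 and fasted 5 they were 313.23 and 715.28, against 584.51 and 1604.84 over all kept regions. A low rank here is low beside other shared regions. The lower quartiles of these fasted scores at fed-ranked regions, 182.83 and 291.57, exceeded the medians of all single peaks, 134.53 in fasted 2 and 263.72 in fasted 5. The measures are not alike, because a region counts by the highest of its peaks, which raises its score where there are several.

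**Figure D1:**
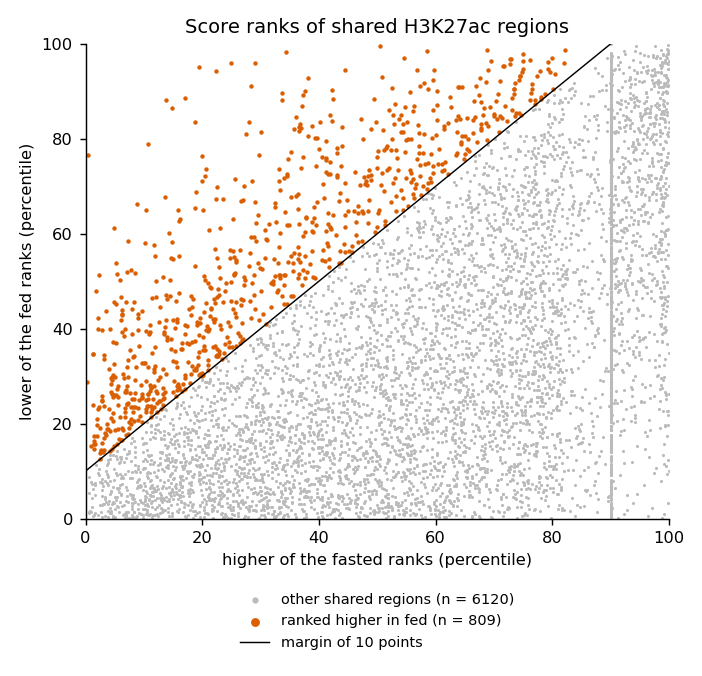
Each point is an autosomal region with a peak in all 4 libraries; the horizontal axis is the higher of its 2 fasted percentile ranks, the vertical axis the lower of its 2 fed ranks, and the line is the 10-point margin. The 809 orange points lie on or above the line by the rule, and the vertical stripe at 90.2 holds regions whose fasted 5 score is the tied value of 3100.

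The top of the fasted ranks was closed to the rule. A region with a fasted rank above 90 cannot be exceeded by 10 points, and 1477 kept regions, 21.3%, had such a rank. Among them were 1143 regions that shared a fasted 5 score of 3100 and so an averaged rank of 90.2. The highest fasted rank of any fed-ranked region was 82.1. The replicates of a group differed in rank by a median of 11.3 points between the fed and 8.4 between the fasted libraries at fed-ranked regions. Over all kept regions these differences were 20.3 and 12.3 points, but the rule itself favours regions whose replicates lie close. The deposited file names carry the number 10 for fed 1 and fasted 2 and the number 11 for fed 4 and fasted 5, and no source says what it stands for. Fed 1 exceeded fasted 2 by 10 points or more at 2360 kept regions and fed 4 exceeded fasted 5 at 2518. Both held at 1091, which include all 809 by construction.

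The largest gap was found on chromosome 7 at chr7:82574562-82580288, a region of 5727 bp. Fed 1 ranked it at 76.6 and fed 4 at 91.2, whereas fasted 2 had it at 0.2 and fasted 5 at 0.4. This gives 83.9 ± 10.3 in the fed and 0.3 ± 0.2 in the fasted libraries (mean ± SD, n = 2). A single peak of 3697 bp stood there in fed 1 and one of 2507 bp in fed 4. Fasted 2 had 2 peaks covering 1456 bp, and fasted 5 had 1 peak of 747 bp. The fed peaks were thus the longer ones here, yet no base of the region was covered in all 4 libraries. It was not a shared region without fed 1, with scores of 100 or more, or with equal numbers of top-scoring peaks, and had no value there. The fed 1 peak began at its left end and the fed 4 peak ended at its right end, and no fasted peak lay where they overlapped.

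The next in order lay on chromosome 6 at chr6:108430058-108449753 and was 19696 bp wide. The fed ranks were 95.1 and 95.5, the fasted ranks 13.5 and 19.4. Unlike the chromosome 7 region it was covered widely in both states, with 17669 bp under fed 1 peaks, 10447 bp under fed 4, 18394 bp under fasted 2 and 15587 bp under fasted 5 peaks. The coverage differed little between fed 1 and the fasted libraries, while the ranks lay far apart. Another fed-ranked region began only 8 bp away. When peaks within 2000 bp of each other were merged, the gap at this locus was 6.28 points, under the margin.

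Most of the regions with the largest gaps were wide. A large gap needs high fed ranks, and fed ranks rose with width over all kept regions, as given below. Of the 12 named by the size of their gap, 10 were 18380 bp wide or more. Besides the chromosome 7 region, only chr6:134630697-134639547, of 8851 bp, was narrower. It ranked 86.6 and 89.6 in the fed and 12.4 and 14.9 in the fasted libraries. At chr13:52887667-52934443, 46777 bp wide, the ranks were 94.3 and 99.2 in the fed against 22.4 and 20.7 in the fasted libraries. Fed 1 had 13 separate peaks there and fed 4 had 6, whereas fasted 2 covered 99.1% of the region with 3 peaks and fasted 5 96.1% with 4. The widest fed peaks of this region, 6543 bp in fed 1 and 3802 bp in fed 4, were also its highest-scoring ones and overlapped each other near its centre.

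Separate fed peaks over a single long fasted peak were also seen on chromosome 17. At chr17:24126444-24147992 fed 1 had 6 peaks and fed 4 had 8, and each fasted library had 1 peak, of 21528 bp in fasted 2 and 20445 bp in fasted 5. Its ranks were 96.0 and 96.6 in the fed and 24.9 and 14.2 in the fasted libraries. A second kept region lay 187 bp away, and with peaks within 500 bp merged the gap turned to -4.13. At chr6:50315604-50336614 the ranks were 97.8 and 95.9 in the fed against 6.2 and 29.1 in the fasted libraries, with 1 fasted peak in each library. The neighbouring kept region there was 248 bp away, and the gap was -3.39 after the same merging. At chr9:57785800-57822925 fed 1 ranked 99.9 and fed 4 98.4, with fasted ranks of 34.4 and 16.7, and the gap was 60.55 points with peaks within 500 bp merged. The last of the 12, chr2:167196669-167215048, ranked 95.7 and 91.1 in the fed and 28.4 and 8.0 in the fasted libraries. Its gap was 1.62 when peaks within 2000 bp were merged, and that of chr6:134630697-134639547 was 3.28.

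**Figure D2:**
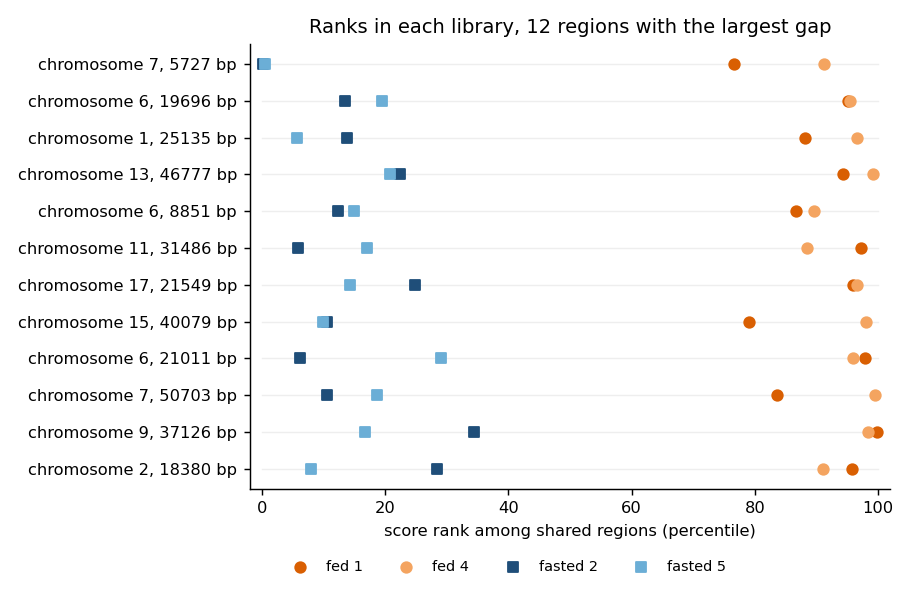
Percentile score ranks in each library (horizontal axis) of the 12 regions with the largest gap, named by chromosome and width and ordered by gap; circles are fed and squares fasted libraries. Both fed ranks lie at 76.6 or above and both fasted ranks at 34.4 or below in every row.

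At 4 of these 12 regions the fasted libraries did not agree in how much they covered. Fasted 2 had 1 peak of 2742 bp at chr15:85887204-85927282, 40079 bp wide, where fasted 5 had 1 peak of 40045 bp. Fed 1 covered 26617 bp of it and fed 4 20179 bp. The ranks were 79.0 and 98.1 in the fed and 10.6 and 9.9 in the fasted libraries, so fasted 5 ranked low there despite its long peak. The others were chr1:43197723-43222857, with 2317 bp covered in fasted 2 and 24782 bp in fasted 5, chr11:116054530-116086015, with 2504 and 29246 bp, and chr7:139938074-139988776. Their fed ranks ran from 83.6 to 99.5 and their fasted ranks from 5.6 to 18.7. No base of these 4 regions was covered in all 4 libraries. With fasted 2 left out their gaps ran from 63.46 to 81.16 points, and with fasted 5 left out no shared region remained there to give a value. Among all kept regions fasted 2 covered under 25% of what fasted 5 did at 11, and 7 of these were fed-ranked. The reverse was found at 4, of which 2 were fed-ranked.

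**Figure D3:**
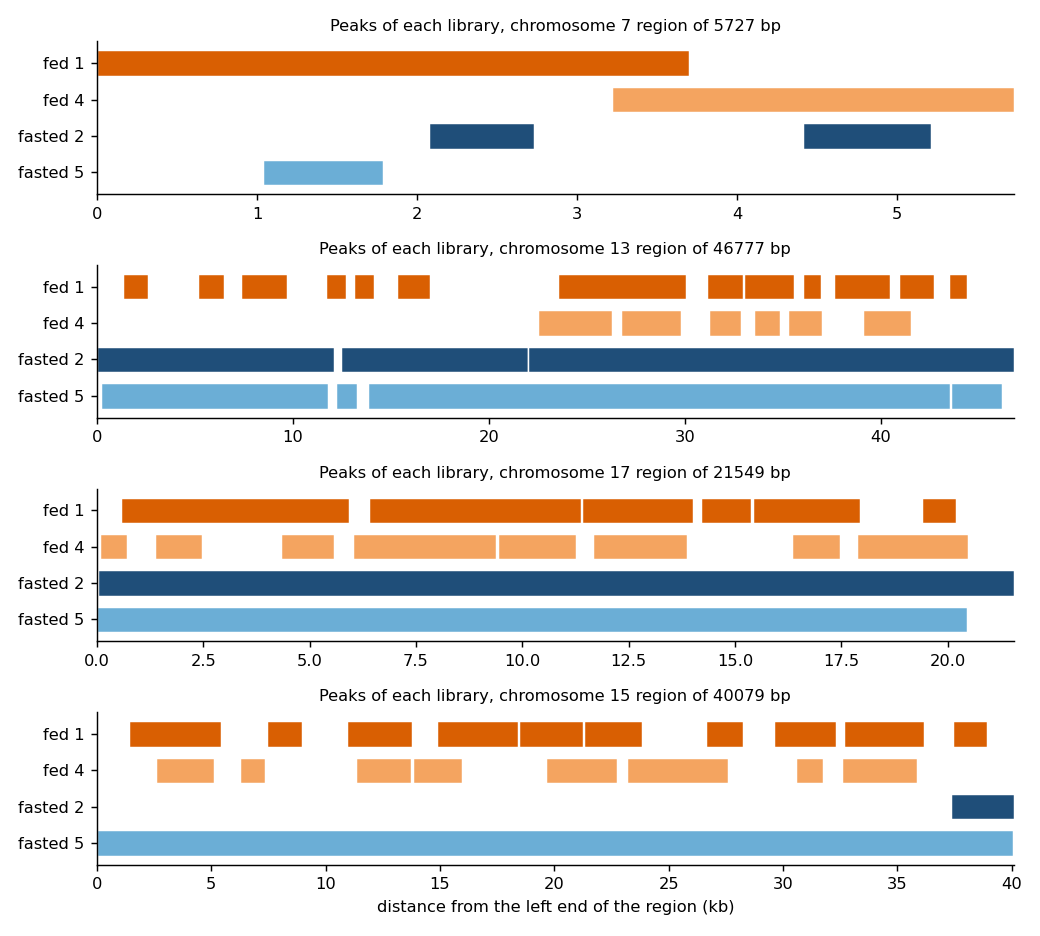
Peaks of each library (bars) at 4 of the regions with the largest gap, by distance in kb from the left end of the region. Chromosome 7 has short fasted peaks, chromosomes 13 and 17 have long fasted and separate fed peaks, and at the chromosome 15 region fasted 2 has 1 peak of 2742 bp beside 40045 bp in fasted 5.

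Of the 5 regions with the highest lower fed rank, chr9:57785800-57822925 is described above, and the other 4 had fasted ranks of 44.3 to 82.1. The highest was chr1:156901079-156923840, at 99.8 and 99.6 in the fed and 50.4 and 49.8 in the fasted libraries. It was 22762 bp wide, and the replicates of each state differed there by under 1 point. At chr8:129360573-129380758 the ranks were 98.8 and 99.4 in the fed and 82.1 and 81.0 in the fasted libraries, so it stood high in all 4 libraries. Its gap of 16.68 points was 2.67 with peaks within 500 bp merged and 9.23 without fed 4, both under the margin. At chr8:73193976-73205020 fed 1 ranked 99.5 and fed 4 98.6, against 59.7 and 68.8 in the fasted libraries. A kept region lay 98 bp from it, and its gap was -0.34 with peaks within 500 bp merged. At chr3:88211101-88232261 the ranks were 99.6 and 98.4 in the fed and 44.3 and 58.5 in the fasted libraries. Its gap of 39.92 points turned to -3.28 when the scores of all peaks in a region were summed.

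Of the 5 widest fed-ranked regions, those on chromosomes 13 and 7 are described above. The widest, chr4:45484148-45537697 with 53550 bp, had fed ranks of 82.1 and 99.3 and fasted ranks of 49.0 and 29.8. Its gap was 5.54 points with peaks within 2000 bp merged. The next, chr8:124797508-124850951, ranked 91.2 and 95.9 in the fed and 35.4 and 57.3 in the fasted libraries. At chr9:46005406-46054974 the ranks were 88.6 and 98.2 against 60.9 and 73.1, and fed 1 had 17 peaks where fasted 5 had 3. Its gap of 15.44 points was 5.06 when ranks were taken within width deciles. Fasted peaks covered 96.0% or more of each of these 3 regions, and fed peaks between 31.5% and 76.2%.

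Fed-ranked regions were most frequent at both ends of the width range. The kept regions were ordered by width and split into 10 deciles of 692 or 693 regions. Fed-ranked regions made up 22.4% of the narrowest decile, 1068 to 3116 bp, and 20.4% of the widest, 15002 to 55583 bp. In deciles 4 to 9 their share lay between 7.22% and 9.24%. Fasted-ranked regions had the opposite profile, with 2.74% of the narrowest decile, 18.2% of the decile of 7697 to 9024 bp and 4.19% of the widest. Among regions of 20000 bp or more, 79 of 291 were fed-ranked and 7 fasted-ranked.

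The median ranks of all kept regions crossed at both ends in the same way. In the narrowest decile the fed medians were 19.7 and 27.9, and the fasted median was 11.6 in fasted 2 and close to that in fasted 5. In the decile of 7697 to 9024 bp they were 57.4 and 53.4 in the fed and 65.8 and 61.0 in the fasted libraries. In the widest decile the fed medians were 86.3 and 83.8, and that of fasted 5 was 73.0. The medians rose from decile to decile in every library. From the decile of 9025 to 11170 bp to the widest, fed 1 rose from 65.9 and fed 4 from 57.8, whereas fasted 5 rose from 66.2 and fasted 2, at 71.7 in the former, was little higher in the widest. The relation of rank to width thus differed between the libraries over all kept regions. With ranks taken within each decile, 865 regions were fed-ranked, and 670 of the 809 were among them.

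**Figure D4:**
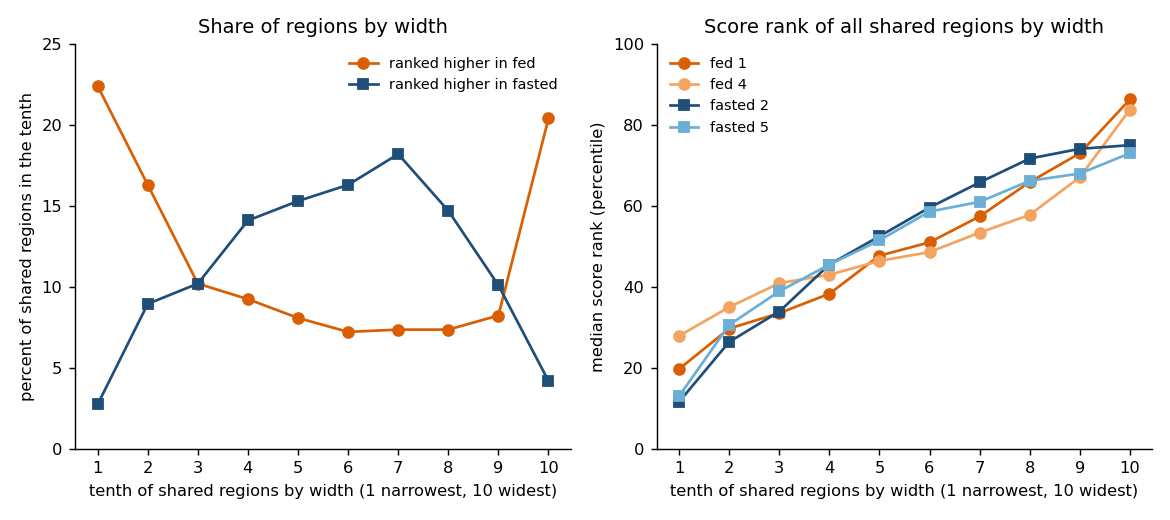
Left, the percent of shared regions in each width decile that were fed-ranked (circles) or fasted-ranked (squares); right, the median percentile score rank of all shared regions of the decile in each library. The fed-ranked share is 22.4% in the narrowest and 20.4% in the widest decile, and both fed medians lie above both fasted medians in deciles 1 and 10.

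The narrow and the wide fed-ranked regions had different ranks. The 2 narrowest deciles held 268 of them, with median ranks of 40.2 and 51.1 in the fed and 8.3 and 7.3 in the fasted libraries. They typically had 1 peak in each library, as did all kept regions of these deciles. Their median covered length was 1813 and 1328 bp in the fed and 2334 and 2394 bp in the fasted libraries. Over all kept regions of these deciles it was 1590 and 1126 bp in the fed and 2594 and 2796 bp in the fasted libraries. The widest decile held 141, with median ranks of 90.5 and 89.7 in the fed and 44.3 and 44.5 in the fasted libraries. Their median number of peaks was 6 in fed 1, 5 in fed 4 and 2 in each fasted library. It was much the same over all kept regions of that decile, at 5 in fed 1, 4 in fed 4 and 2 in each fasted library. Among shared regions, the narrow fed-ranked ones were thus low in the fasted and near the middle in the fed libraries. The wide fed-ranked ones were high in the fed and near the middle in the fasted libraries. Over all kept regions of the 2 narrowest deciles, median ranks were 24.5 and 31.5 in the fed libraries. They were 17.1 and 21.4 in the fasted ones. In the widest decile the fed medians were 86.3 and 83.8, and that of fasted 5 was 73.0. The rule picks high fed and low fasted ranks, so these differences from all kept regions follow from it. Gaps of 50 points or more were mostly found at wide regions, 18 of 30 in the widest decile, against 50 of 399 at gaps of 10 to 20 points. A gap of 50 points needs both fed ranks at 50 or more. Over all kept regions the upper quartile of the fed 1 ranks was 43.1 in the 2 narrowest deciles, so most narrow regions could not have such a gap. The lower quartile in the widest decile was 71.5.

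A region split into several peaks gives its highest score from only a part of its length, so the regions with exactly 1 peak in every library were counted apart. Fed-ranked regions were 219 of these 1780, or 12.3%, close to their share of all kept regions. Most regions of the widest decile are left out here, as their lower quartiles were 4 peaks in fed 1 and 3 in fed 4. The fed-ranked share was 19.3% in the 2 narrowest deciles, where 1 peak per library was typical. Whether splitting plays a part was not tested. When the 1780 were ranked among themselves, 241 were fed-ranked, of which 203 were among the 809.

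Fasted peaks covered more of the fed-ranked regions than fed peaks did, as over all kept regions, but by less. Fed 1 peaks covered a median of 3274 bp of a fed-ranked region and fed 4 peaks 2105 bp, while fasted 2 reached 4782 bp and fasted 5 4665 bp. The ratio of the mean fasted to the mean fed length had a median of 1.63 at fed-ranked regions, 2.05 at all kept regions and 2.63 at fasted-ranked regions. For single pairs of libraries it ran from 1.35 to 2.17 at fed-ranked and from 1.58 to 2.93 at all kept regions, and each pair was lower at the fed-ranked ones. The pairs with fed 4 gave the higher ratios in every set, so the choice of fed library moved the ratio at least about as much as fed-ranked and all kept regions differed. The fasted libraries each covered more than either fed one at 603 fed-ranked regions, 74.5%, beside 91.3% of all kept regions. Lengths and scores come from the same peaks, so this is a second view of the same contrast and no independent test.

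**Figure D5:**
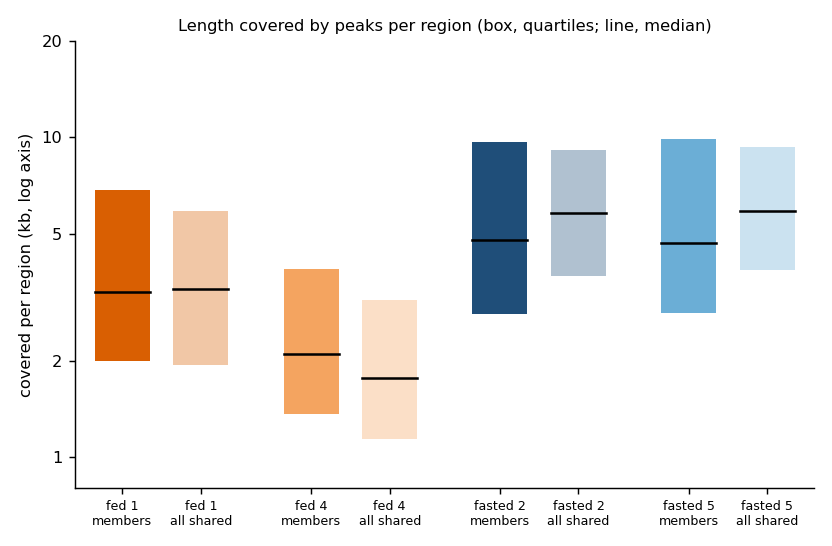
Length covered by peaks per region in kb (log axis) in each library, for the 809 fed-ranked regions (dark) and all 6929 shared regions (pale); boxes span the quartiles and lines are medians. The fasted medians are 4782 and 4665 bp at fed-ranked and 5809 and 5899 bp at all shared regions.

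The opposite order, with both fed libraries covering more than both fasted, was found at 12 kept regions, 0.173%, and 11 of them were fed-ranked. At chr1:134248844-134252462 fed peaks covered 3374 and 3291 bp and fasted peaks 1953 and 2338 bp. Its ranks were 61.3, 96.6, 0.1 and 4.9 in that order, a gap of 56.42 points. At chr19:29285851-29288075, 2225 bp wide, the fed libraries covered 1866 and 1873 bp and the fasted 1152 and 814 bp. This region stood below the middle of the shared regions in all 4 libraries, at ranks of 28.8 and 34.5 in the fed and 0.3 in both fasted libraries. At chr16:97918679-97922369 the fed libraries covered 3084 and 3068 bp and the fasted 1661 and 2541 bp, but the fed ranks lay far apart, at 19.7 in fed 1 and 91.5 in fed 4, and without fed 4 its gap of 17.74 points was 6.50. At chr10:41673138-41680260 the fed libraries covered 5841 and 4738 bp and the fasted 4338 and 3841 bp, with ranks of 56.3, 70.2, 43.7 and 18.6. The gap of this last region, 12.62 points, was near the margin and was -0.25 with a score averaged over peak length and 9.06 without fed 4. With the chromosome 7 region described first, these are the 5 named for their covered length.

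Peaks of the 4 libraries usually coincided at fed-ranked regions. At least 1 base was covered in all 4 libraries at 733 of them, 90.6%, beside 88.7% of all kept regions. The common stretch had a median of 1444 bp, beside 1254 bp. The highest-scoring peaks of fed 1 and fed 4 overlapped at 73.4% of fed-ranked and 68.1% of all kept regions. Those of fasted 2 and fasted 5 overlapped at 96.3% and 98.4%. Between a fed and a fasted library the highest-scoring peaks overlapped at 82.3% to 91.7% of fed-ranked regions. Over all kept regions it was 88.7% to 94.7%, and each such pair was lower at the fed-ranked ones. The remaining 76 fed-ranked regions, 9.39%, had no base in common, and the rank of such a region joins peaks at different places. The fed ranks also do so wherever the highest-scoring fed peaks did not overlap, since only those peaks give the rank. They overlapped at 594 of 809 fed-ranked regions, but not at chr17:24126444-24147992 or chr15:85887204-85927282.

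Fed-ranked regions lay nearer to other shared regions than the kept regions did as a whole. The nearest kept region was a median of 5413 bp away, against 12319 bp over all kept regions and 26445 bp for fasted-ranked ones. A kept region lay within 50000 bp of 85.7% of fed-ranked, 74.5% of all kept and 61.8% of fasted-ranked regions. Another fed-ranked region lay within 50000 bp of 32.8% of them, and one lay within that distance of 22.1% of all kept regions. Both shares count neighbours at the same distance, and fed-ranked regions had more neighbours of either kind. Kept regions that were not fed-ranked had a median gap of -17.9 points within 50000 bp of a fed-ranked region and of -24.5 points elsewhere. Of the former 8.23% were fasted-ranked, and of the latter 14.2%. The gap is the value that the rule used. Every region of the former kind has a kept neighbour by definition, whereas only 61.8% of fasted-ranked regions had one within that distance. No grouping is read from these values.

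Some fed-ranked regions formed runs. Joined across distances of up to 50000 bp, 265 of the 809 fell into 112 runs of 2 or more. The largest run, on chromosome 5 at chr5:64768113-65078304, spanned 310192 bp and held 10 fed-ranked regions among 21 kept ones. Their ranks ran from 29.1 to 93.5 in fed 1 and 50.2 to 97.9 in fed 4, and from 8.4 to 70.3 in fasted 2 and 1.8 to 54.8 in fasted 5. Of the other 11 regions there, 0 were fasted-ranked and 2 had both fed ranks above both fasted ranks. That order was found at 21.5% of all kept regions, but these include the fed-ranked ones, which have it by the rule. Of all regions near a fed-ranked one that were not fed-ranked themselves, 8.23% were fasted-ranked and 15.3% had that order. A run on chromosome 11, chr11:86717619-86842265, held 6 fed-ranked among 8 kept regions. Runs of 5 were found on chromosome 14 at chr14:70024235-70143836, where all 5 kept regions were fed-ranked, and on chromosome 6 at chr6:108376533-108461710, which holds the region with the gap of 75.68 points. In the chromosome 14 run fed 1 covered 22580 bp, close to the 21265 and 22236 bp of the fasted libraries, and fed 4 covered less, 15735 bp. These runs were chosen for description after their values were seen. Kept regions that nearly touch count separately in runs and as neighbours. In the chromosome 5 run a fed-ranked region ended at 64772327 and the next began at 64772333. Runs and neighbours were not counted again with nearby peaks merged.

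Regions with peaks in a single feeding state lay near some of them. Of the 128 autosomal regions with a peak in both fed and neither fasted library, 67 lay within 10000 bp of a kept region, 23 within that distance of a fed-ranked and 4 of a fasted-ranked region. Such a region was near 3.09% of fed-ranked and 1.31% of all kept regions. Regions with peaks in both fasted and neither fed library numbered 8112 on the autosomes, and 2171 lay within 10000 bp of a kept, 280 of a fed-ranked and 342 of a fasted-ranked region. One was near 30.5% of fed-ranked and 31.5% of all kept regions. These sets come from the same 4 lists as the ranks.

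Fed-ranked regions were found on all 19 autosomes. Their share of the kept regions ran from 9.2% on chromosome 17, with 31 of 337, to 14.2% on chromosome 14, with 36 of 253. Chromosome 9 had 55 of 390 and chromosome 16 had 31 of 227. On chromosomes 5 and 16 fasted-ranked regions were fewest, at 7.78% and 6.61%, and on chromosome 15, where they made up 16.9%, fed-ranked regions made up 10.2%. Chromosomes are not replicates, and these shares were not tested.

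At the margin itself, the regions just inside were chr18:85080203-85085483, chr4:86575016-86577546 and chr4:154506958-154510457, with gaps of 10.05, 10.06 and 10.07 points. The second ranked 22.0 and 14.3 in the fed and 0.7 and 4.3 in the fasted libraries. Just outside were chr11:70512136-70517469, chr1:55227117-55231972 and chr16:90210674-90219923, with gaps of 9.90, 9.84 and 9.83 points. The first of these ranked 86.7 and 68.6 in the fed and 58.7 and 58.3 in the fasted libraries.

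The number of fed-ranked regions rested on the population in which ranks were taken. With ranks among all peaks of a library, the 12 regions with the largest gaps had gaps of 16.90 to 83.20 points. Leaving out 1 library changed both the number of ranks compared and the shared regions. The count was then 1451 to 3149 and the share of shared regions 19.6% to 26.9%.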

How the data were processed

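H3K27ac ChIP-seq was done on 2 fed and 2 fasted pools of crypts. The submitters' processing notes list Bowtie 1.1.2, SAMtools 1.9, deepTools 1.5.11, FastQC and the mouse build mm9, without an order or parameters. The deposited files hold the authors' peaks of each library, not of pooled replicates, with a score for each peak; the peak and file names point to MACS without a shifting model, against a second track. The scale of the deposited score is not stated; it is about 50 at its lowest. It may be a significance, which would make it and its ranks depend on depth, but no source says so, and scores were only ranked within a library.

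Merging, ranking and counting were done with Python 3.11.15, pandas 2.3.3, NumPy 2.4.6 and SciPy 1.17.1, and were tested on simulated data. The rule used the scores of all 4 libraries, so no result was tested for significance. The replicates were separate pools of animals. The regions and the rules for describing them were chosen with earlier results of these data known. Named were the 12 regions with the largest gap, the 5 with the highest lower fed rank, the 5 widest, up to 5 that both fed libraries covered more (4 beside the first) and 3 on each side of the margin. Alternatives changed the margin, the score summary, the ranks, ties, merging, score minimum, number of peaks, chromosomes and libraries. Gene lists were not used, as the gene table is of another build.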

Additional observations from a re-analysis of the deposited data

How the results depend on the processing

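The 19 alternatives gave 57 values for the 2 counts and the covered-length ratio, of which 41 stayed near the reported one. Of the 19, 2 were chosen after seeing the data: regions with 1 peak per library and ranks of covered bases. Near meant within a fixed factor for a count and within 0.47 for the ratio, the SD over pairs of libraries. That band also holds the 2.05 of all kept regions, and every ratio, 1.35 to 2.01, fell in it. All 16 values that moved were counts. Fed-ranked and fasted-ranked regions numbered 410 and 422 at a margin of 20 points, 107 and 1631 with ranks among all peaks, 303 and 259 of 2409 shared regions with scores of 100 or more (12.6% and 10.8%), and 241 and 216 of 1780 with 1 peak per library (13.5% and 12.1%). Leaving out 1 library gave 1451 to 3149 fed-ranked and 1365 to 3210 fasted-ranked regions, among 7206 to 13322 shared ones. The counts were highest without fed 4 (23.6% and 24.1%) and the shares without fed 1 (26.9% and 27.2%). Of the 809, 530 were fed-ranked with summed scores, 635 and 504 with peaks within 500 and 2000 bp merged, and 203 by covered bases, where 12 were fasted-ranked.

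Of the gaps of the 29 named regions, 320 values moved by less than the spread between replicates, 137 moved by more and 40 reversed. The cause was not tested. Changing the margin leaves every gap as it was, and ties and chromosomes X and Y barely changed any. The values of these settings are all among the 320. In 54 further cases no shared region was left to give a value, 26 of them with 1 peak per library and 14 with equal peak numbers. With summed scores the chromosome 3 region had -3.28, and those just outside the margin on chromosomes 11, 1 and 16 had -4.78, -3.64 and -12.28. With the length-weighted mean chromosome 10 had -0.25 and chromosome 16 -3.74. With ranks among all peaks chromosome 10 had -3.29, the just-inside regions of chromosomes 18 and 4 (86575016) -10.71 and -17.35, and those just outside -9.45, -6.42 and -15.01. With peaks within 500 bp merged, chr17, chr6:50315604-50336614, chr8:73193976-73205020, chr18 and the just-outside chr16 had -4.13, -3.39, -0.34, -7.75 and -5.19. Within 2000 bp these were -4.52, -3.66, -0.37, -7.43 and -3.16, and chr4:154506958-154510457 had -3.82. With scores of 100 or more, the just-outside regions of chromosomes 11 and 1 had -16.40 and -10.25.

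With ranks of covered bases the gaps were -0.92 (chr1:43197723-43222857), -0.79 (chr13), -0.86 (chr6:134630697-134639547), -0.61 (chr11:116054530-116086015), -0.10 (chr15), -6.27 (chr6:50315604-50336614), -0.04 (chr7:139938074-139988776), -0.30 (chr9:57785800-57822925), -0.52 (chr2), -0.18 (chr3), -0.13 (chr4:45484148-45537697), -0.03 (chr8:124797508-124850951), -0.42 (chr9:46005406-46054974), -9.85 (chr18) and -29.04 (just-outside chr16). No paired analysis was possible because the labels give fed and fasted libraries no replicate number in common and the counts come from no fit; the values within the numbers in the file names stand with the ranks. With 2 libraries a state, unknown depth and no mm9 annotation, the ranks show order among shared regions only.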
